A study of Mus musculus with 12 samples.

Results

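The 40 genes described here are interferon-stimulated antiviral effectors: the proteins that cells make after interferon binds its receptor and that act on viruses or their nucleic acids. They were taken by name from a fixed list that leaves out the OAS, GBP and IRG genes, the nucleic acid sensors and the STAT and IRF transcription factors, which are given further down as context. All 40 were in the count table of 49585 genes, and all 40 passed the filter on low counts that left 16318 genes for testing. The libraries came from primary osteoblast cultures grown from the calvariae of C57BL/6J mouse pups aged 3 to 5 days, with the calvariae of 1 to 3 pups (sample labels) or of 3 pups (the study's methods) in a culture. Cultures labelled Bcl3-/- came from mice of that strain with the genotype Bcl3-/-, and WT cultures came from wild-type mice. Bcl3 is a gene for a nuclear IκB protein that binds p50 and p52 NF-κB dimers. The study's methods call the 2 genotypes littermates, while its supplement describes timed matings, matched in age, that were arranged at the same time between genotypes. Whether the WT and Bcl3-/- pups of these cultures shared litters is not stated. Every culture received osteogenic medium with ascorbic acid and β-glycerophosphate, RNA was taken on day 3 and on day 1 of that treatment, and no untreated group was analysed. Each of the 4 groups (Bcl3-/- on day 3 and on day 1, and WT on day 3 and on day 1) had 3 libraries. The labels give the same 3 culture codes for each genotype on both days, and libraries with the same code were read as 1 culture sampled on both days. A primary calvarial culture also holds other cells of the skull, and in such bulk libraries fewer cells of a type and less RNA per cell cannot be told apart.

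In the textbook pathway, type I interferons signal through the receptor chains IFNAR1 and IFNAR2 and the kinases JAK1 and TYK2 to a complex of transcription factors that binds the interferon-stimulated response element in the promoters of target genes. The target genes encode proteins that bind viral RNA, tag proteins with ISG15, hold virus particles at the membrane, degrade RNA or block entry. Many cells also keep a low level of this response without infection.

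The response element is shown first, because it is the sequence feature that these genes are known for. Its core was searched as 2 copies of GAAA set 2 bases apart, on both strands, in the RefSeq promoters of build GRCm38.p6, which run from 250 bases before to 50 bases after each gene's start. A promoter was found for 31 of the 40 genes, and 12 of these 31 (38.7%) held the core, against 1079 of 27025 genes of the whole promoter table (3.99%). Within the 150 bases before the start alone, 8 of 31 (25.8%) held it, against 1.85% of all genes. The windows below are printed 5′ to 3′ on the strand of the gene, with the matched bases in capitals, and overlapping matches are joined. The core reads as GAAA repeats where it lies on the strand of the gene and as TTTC repeats where it lies on the other strand.
Isg15: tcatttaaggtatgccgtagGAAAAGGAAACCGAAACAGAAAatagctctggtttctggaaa
Ifit1: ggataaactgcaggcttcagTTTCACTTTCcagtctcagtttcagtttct
Ifit3: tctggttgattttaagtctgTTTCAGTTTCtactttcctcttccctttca
Ifit3b: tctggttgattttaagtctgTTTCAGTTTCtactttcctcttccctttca
Rsad2: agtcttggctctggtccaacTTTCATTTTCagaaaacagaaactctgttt
Bst2: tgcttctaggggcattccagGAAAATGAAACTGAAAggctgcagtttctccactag
Ddx60: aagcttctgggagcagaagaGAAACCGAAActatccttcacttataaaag
Slfn5: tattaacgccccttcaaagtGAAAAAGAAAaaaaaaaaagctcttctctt

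The Isg15 window lies at chr4:156200855-156200916 on the minus strand, begins its matched bases 78 bases before the start and holds 3 overlapping matches. The Ifit1 window lies at chr19:34640765-34640814 on the plus strand, and a further core stands in lower case at its end, 85 bases before the start. The windows of Ifit3 (chr19:34583387-34583436) and Ifit3b (chr19:34607783-34607832), both on the plus strand, are the same 50 bases, since the 2 genes are near copies of each other. The Rsad2 window lies at chr12:26456543-26456592 on the minus strand, and the Bst2 window at chr8:71537567-71537622 on the minus strand with 2 overlapping matches. The Ddx60 window lies at chr8:61928048-61928097 on the plus strand, 19 bases before the start, and another core lies 53 bases before it. The Slfn5 window lies at chr11:82951927-82951976 on the plus strand, in a run of A. The other members with the core were Slfn8, Trim30a, Ifitm3 and Trim21. A gamma-activated site, TTC and GAA set 3 bases apart, was in 5 of the 31 promoters (16.1%) against 9.55% of all genes, and an NF-κB site was in 1 (3.23%), that of Bst2, against 5.14%. These are matches of letters in a short window and do not show that a factor binds there.

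Across the 4 groups the 40 genes followed 1 main pattern. They were lowest in day 1 WT libraries, higher in day 1 libraries labelled Bcl3-/-, and highest on day 3, when the 2 genotypes lay close together. The mean log2 CPM (CPM being counts scaled to the library's total after TMM normalization, here with a prior count of 2) over the 40 genes was 5.81, 5.62 and 5.55 in the day 3 Bcl3-/- libraries, 4.84, 4.84 and 5.44 in the day 1 Bcl3-/- libraries, 6.01, 6.03 and 5.83 in the day 3 WT libraries and 2.75, 3.06 and 4.08 in the day 1 WT libraries. The group means were 5.66 ± 0.14, 5.04 ± 0.35, 5.95 ± 0.11 and 3.30 ± 0.69 in the same order (SD, n = 3 each), while the mean over all genes tested lay between 3.34 and 3.44 in every library. No library of any group overlapped with another group in this mean. As a share of all gene counts, the 40 genes took 0.298 to 0.406% in day 3 Bcl3-/- libraries, 0.211 to 0.315% in day 1 Bcl3-/- libraries, 0.367 to 0.434% in day 3 WT libraries and 0.0713 to 0.145% in day 1 WT libraries. From lowest to highest mean, the order of WT on day 1, Bcl3-/- on day 1, Bcl3-/- on day 3 and WT on day 3 held for 30 of the 40 genes. In 6 others, Slfn5, Ifitm3, Lgals3bp, Trim25, Sp100 and Ifi27l2a, day 3 Bcl3-/- was the highest group, and the last 4 genes, Helz2, Znfx1, Pml and Ifi27, had other orders.

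**Figure D1:**
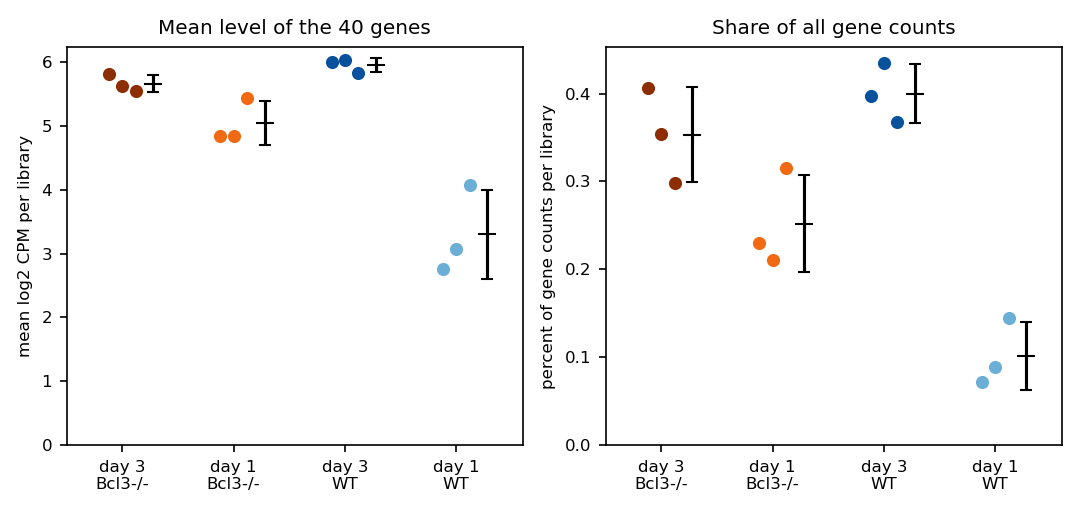
Mean log2 CPM of the 40 genes (left) and the percent of all gene counts they took (right) in each library, by group. Points are libraries, and the bar beside them is the mean with its SD (n = 3). Day 1 WT libraries lie lowest, at 2.75 to 4.08, and the other groups lie between 4.84 and 6.03.

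The libraries held 20009732 to 41953891 gene counts each, with a median of 31792039, and no pair of libraries was a copy of another. Bcl3 itself did not separate the labels on day 1: it had 17.5, 19.7 and 19.2 CPM in Bcl3-/- libraries against 17.95, 21.8 and 17.8 CPM in WT libraries (log2 fold change -0.03 ± 0.12, SE, edgeR adjusted p = 0.89). On day 3 it had 10.2, 9.72 and 8.31 CPM in Bcl3-/- libraries against 14.8, 15.9 and 12.8 CPM in WT libraries, and was lower in the libraries labelled Bcl3-/- (log2 fold change -0.62 ± 0.12, SE, edgeR adjusted p = 0.0086). Where the deletion lies within the gene is not given in the sources used here, so these counts may come from outside it, and the genotypes below are those of the labels. The 12 osteoblast markers had summed levels of 80642 to 86734 CPM in day 3 Bcl3-/-, 65369 to 68590 CPM in day 1 Bcl3-/-, 78291 to 84967 CPM in day 3 WT and 38274 to 55353 CPM in day 1 WT libraries, most of it from Col1a1, Col1a2, Sparc and Spp1. Runx2 had 45.6 to 60.3 CPM and Alpl 10.6 to 125 CPM over the 12 libraries. The late markers were low, with 0.136 to 3.92 CPM for Bglap, 0.271 to 7.55 CPM for Bglap2 and 0.569 to 3.34 CPM for Phex.

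**Figure D2:**
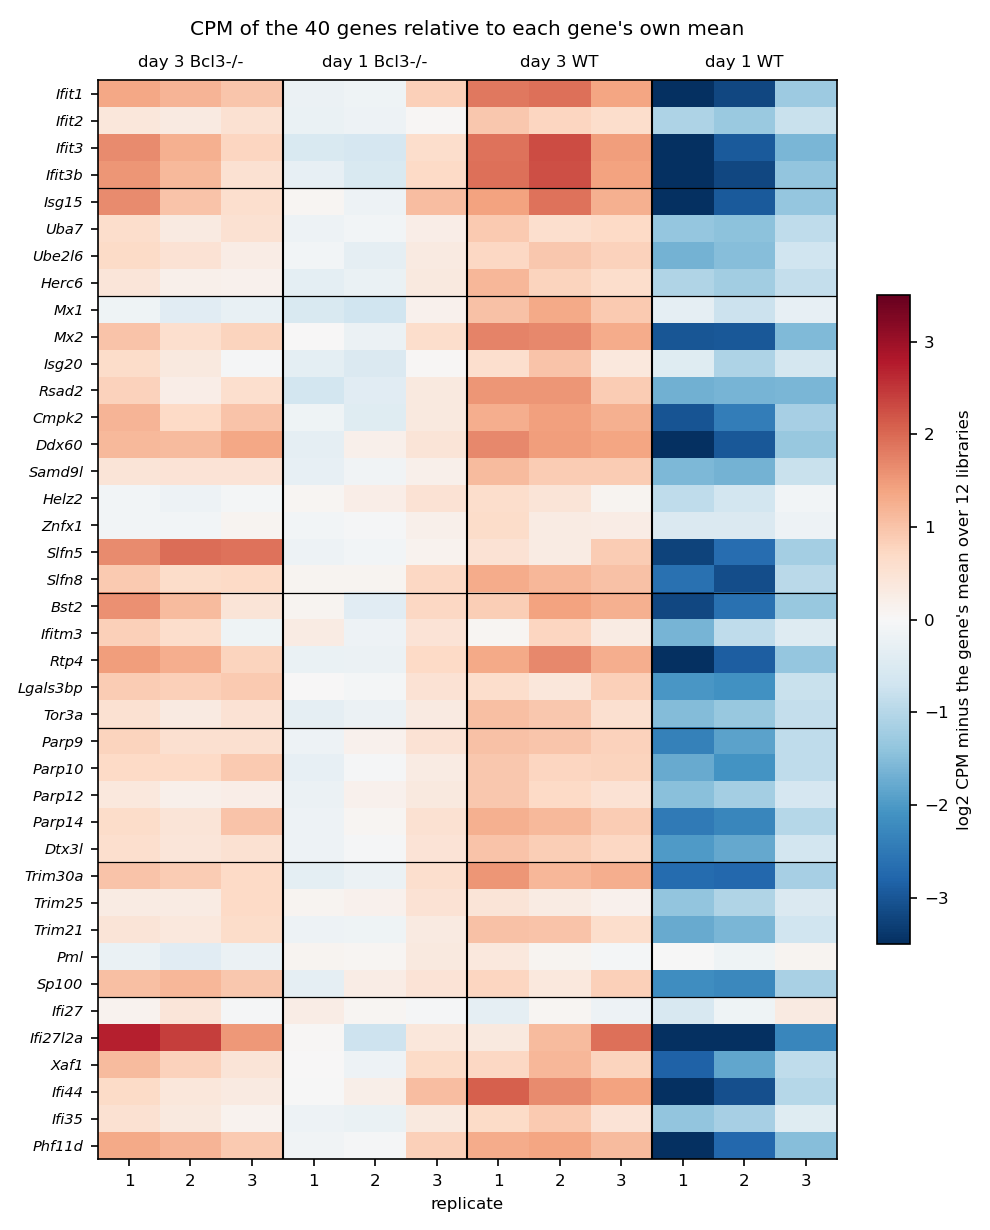
Log2 CPM of each of the 40 genes (rows, grouped by role) in each of the 12 libraries (columns, by group and replicate), relative to the gene's own mean over the 12 libraries. Colours stop at 3.5 log2 units either way. The day 1 WT columns are the bluest for nearly all genes, and replicate 3 is the palest of them. Mx1, Pml and Ifi27 stand out as rows with other patterns.

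On day 1, 36 of the 40 genes (90%) were higher in Bcl3-/- than in WT libraries at an adjusted p below 0.05 in edgeR's quasi-likelihood test, and none was lower. Of all genes tested, 9.03% were called higher and 6.26% lower in this comparison. The median difference over the 40 genes was a log2 fold change of 1.59, or 3.00-fold, against 0.00 over all genes tested, and it ran from 0.13 for Mx1 to 3.01 for Ifi27l2a. In each of the 36 genes all 3 libraries labelled Bcl3-/- lay above all 3 WT libraries, as they did in 19.4% of all genes tested. Mx1, Isg20, Pml and Ifi27 were not called. Of the 36 calls, 30 held when any 1 of the 12 libraries was left out. Ifit1 and Ifit3b lost their calls without day 1 WT replicate 2, Helz2 and Ifi35 without day 1 Bcl3-/- replicate 3 or day 1 WT replicate 1 or 2, Ifitm3 without day 1 Bcl3-/- replicate 1 or 3 or day 1 WT replicate 1 or 2, and Znfx1 in 7 of the 12 fits. Without day 1 WT replicate 3, the highest WT library, the median log2 fold change was 2.12.

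The day 1 difference was present in every role. The IFIT proteins bind foreign RNA through tetratricopeptide repeats, and Ifit1 recognises RNA whose cap lacks methylation. All 4 IFIT genes of the list, which lie on chromosome 19 between 34550694 and 34650009 (GRCm38, GENCODE M21 annotation), rose, by a median of 5.51-fold. Ifit2 had 27.7, 28.9 and 33.5 CPM in Bcl3-/- libraries against 15.3, 13.2 and 19.0 CPM in WT libraries (log2 fold change 0.92 ± 0.13, SE, edgeR adjusted p = 0.0014), the least of the 4 in fold but the most even between replicates. Ifit3 had 34.0, 32.4 and 75.1 CPM in Bcl3-/- libraries against 2.58, 6.31 and 16.0 CPM in WT libraries (log2 fold change 2.47 ± 0.52, SE, edgeR adjusted p = 0.0081). Its WT libraries themselves spanned a range from 2.58 to 16.0 CPM. Ifit1 and Ifit3b differed by log2 fold changes of 2.63 and 2.45. How the counting treated reads that match both Ifit3 and Ifit3b is not given in the sources used here, so the level of each copy is uncertain.

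ISG15 is a ubiquitin-like protein that is attached to newly made proteins, and Uba7, Ube2l6 and Herc6 are its activating enzyme, its conjugating enzyme and, in mice, its main ligase. All 4 rose. Isg15 (chromosome 4, 156199424 to 156200818, minus strand) had 67.5, 57.3 and 136 CPM in Bcl3-/- libraries against 2.85, 8.38 and 25.2 CPM in WT libraries (log2 fold change 2.81 ± 0.58, SE, edgeR adjusted p = 0.0079), so that its lowest library labelled Bcl3-/- stood above its highest WT library. Uba7 had 22.4, 23.8 and 29.9 CPM in Bcl3-/- libraries against 9.90, 9.40 and 13.5 CPM in WT libraries and the smallest adjusted p of the 40 genes (log2 fold change 1.21 ± 0.16, SE, edgeR adjusted p = 0.00091). Ube2l6 had 55.5, 48.2 and 74.0 CPM in Bcl3-/- libraries against 19.0, 21.1 and 36.9 CPM in WT libraries (log2 fold change 1.20 ± 0.22, SE, edgeR adjusted p = 0.0046), and Herc6 differed by a log2 fold change of 0.96. The modifier thus differed by 7.01-fold and its 3 enzymes by 1.95- to 2.31-fold in this comparison.

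Of the 11 GTPases, nucleases, helicases and nucleotide enzymes, 9 rose. Mx1 and Mx2 encode dynamin-like GTPases that trap viral nucleocapsids, and C57BL/6 mice carry defective alleles of both. Mx2 had 3.26, 2.80 and 4.91 CPM in Bcl3-/- libraries against 0.407, 0.410 and 1.09 CPM in WT libraries (log2 fold change 2.48 ± 0.34, SE, edgeR adjusted p = 0.0013), with as few as 9 counts in a WT library. Its neighbour on chromosome 16, Mx1, had 2.12, 1.91 and 3.46 CPM in Bcl3-/- libraries against 2.49, 1.84 and 2.53 CPM in WT libraries and was not called (log2 fold change 0.13 ± 0.23, SE, edgeR adjusted p = 0.77). These 2 groups of Mx1 values overlapped. Rsad2, or viperin, makes a chain-terminating nucleotide from CTP, which Cmpk2 helps to supply, and the 2 genes are neighbours on chromosome 12. Rsad2 had 3.64, 4.26 and 7.18 CPM in Bcl3-/- libraries against 1.76, 1.82 and 1.86 CPM in WT libraries (log2 fold change 1.46 ± 0.28, SE, edgeR adjusted p = 0.0049), and Cmpk2 differed by a log2 fold change of 1.89. Samd9l, a restriction factor of poxviruses, had 103, 115 and 141 CPM in Bcl3-/- libraries against 41.9, 39.5 and 73.3 CPM in WT libraries (log2 fold change 1.21 ± 0.20, SE, edgeR adjusted p = 0.0024). Ddx60, a helicase that aids RNA sensing, differed by 2.42 on the log2 scale, and the Schlafen genes Slfn5 and Slfn8 by 2.01 and 2.23. The helicase genes Helz2 and Znfx1 had the smallest called differences, 0.78 and 0.41. Isg20, a 3′ to 5′ exonuclease, had 6.45, 5.80 and 8.499 CPM in Bcl3-/- libraries against 6.11, 3.89 and 5.38 CPM in WT libraries and overlapping groups (log2 fold change 0.44 ± 0.23, SE, edgeR adjusted p = 0.24).

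All 5 membrane and secreted factors rose. Ifitm3, which blocks the fusion of viruses in endosomes, was the most abundant of the 40 genes per length, with FPKM levels (fragments scaled to transcript length and library depth) of 1298 ± 366 FPKM in day 3 Bcl3-/- libraries, 1161 ± 227 FPKM in day 1 Bcl3-/- libraries, 1275 ± 260 FPKM in day 3 WT libraries and 540.1 ± 194 FPKM in day 1 WT libraries (SD, n = 3 each). On day 1 it had 579, 418 and 655 CPM in Bcl3-/- libraries against 153, 258 and 345 CPM in WT libraries (log2 fold change 1.13 ± 0.31, SE, edgeR adjusted p = 0.028). Bst2, or tetherin, which holds budding virions at the cell surface, came next in mean FPKM, followed by Isg15. Bst2 had 95.8, 68.5 and 148 CPM in Bcl3-/- libraries against 9.77, 14.6 and 35.5 CPM in WT libraries (log2 fold change 2.37 ± 0.44, SE, edgeR adjusted p = 0.0045). Lgals3bp, a secreted glycoprotein that binds galectin-3, had 270.2, 256 and 376 CPM in Bcl3-/- libraries against 65.0, 61.2 and 155 CPM in WT libraries (log2 fold change 1.68 ± 0.30, SE, edgeR adjusted p = 0.0034). Tor3a, an interferon-induced torsin ATPase, had 56.5, 61.0 and 87.7 CPM in Bcl3-/- libraries against 24.6, 28.03 and 39.8 CPM in WT libraries (log2 fold change 1.15 ± 0.20, SE, edgeR adjusted p = 0.0032). Rtp4, a receptor transporter protein with antiviral activity, differed by a log2 fold change of 2.45. In this set, too, the groups stayed apart in every gene, although the values of Ifitm3 and Bst2 spread widely within a group.

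The ADP-ribosyltransferases Parp9, Parp10, Parp12 and Parp14 modify proteins or nucleic acids, and Dtx3l is the ubiquitin ligase that pairs with Parp9. All 5 rose. Parp9 had 57.7, 72.6 and 93.1 CPM in Bcl3-/- libraries against 12.8, 17.8 and 35.2 CPM in WT libraries (log2 fold change 1.75 ± 0.29, SE, edgeR adjusted p = 0.0024), and Parp10 had 12.97, 15.4 and 19.0 CPM in Bcl3-/- libraries against 4.66, 3.67 and 8.44 CPM in WT libraries (log2 fold change 1.49 ± 0.24, SE, edgeR adjusted p = 0.0024). Parp14, Dtx3l and Parp12 differed by log2 fold changes of 1.91, 1.43 and 1.14. Parp9 and Dtx3l share a promoter region on chromosome 16 and overlap by 458 exon bases on opposite strands. The strand setting of the counting was not given in the sources used here, so how reads in the overlap were counted is uncertain. Of the TRIM ligases and nuclear body genes, 4 of 5 rose. Trim25, the ubiquitin ligase that acts on the RNA sensor RIG-I in human cells, had 33.3, 34.6 and 44.4 CPM in Bcl3-/- libraries against 11.8, 15.0 and 21.9 CPM in WT libraries (log2 fold change 1.19 ± 0.20, SE, edgeR adjusted p = 0.0027). Sp100, a nuclear body protein, had 13.6, 20.0 and 23.7 CPM in Bcl3-/- libraries against 3.75, 3.53 and 7.70 CPM in WT libraries (log2 fold change 1.92 ± 0.28, SE, edgeR adjusted p = 0.0014). Trim30a and the cytosolic antibody receptor Trim21 differed by 2.06 and 1.27 on the log2 scale. Pml, the scaffold of the same nuclear bodies as Sp100, had 65.5, 64.1 and 78.5 CPM in Bcl3-/- libraries against 60.2, 55.3 and 65.9 CPM in WT libraries and overlapping groups (log2 fold change 0.20 ± 0.12, SE, edgeR adjusted p = 0.3).

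Of the other 6 interferon-induced genes, 5 rose. Ifi27l2a, which encodes a small membrane protein of the ISG12 family, had the largest fold of the 40 genes, with 23.3, 13.9 and 30.1 CPM in Bcl3-/- libraries against 1.67, 1.80 and 4.66 CPM in WT libraries (log2 fold change 3.01 ± 0.52, SE, edgeR adjusted p = 0.003). Ifi27, of the same family and next to it on chromosome 12, had 109, 95.4 and 88.6 CPM in Bcl3-/- libraries against 61.3, 82.4 and 114 CPM in WT libraries (log2 fold change 0.18 ± 0.19, SE, edgeR adjusted p = 0.6). Ifi27l2a thus differed by 8.08-fold with its groups apart, while the groups of its neighbour overlapped. Phf11d, a PHD finger protein, had 17.1, 18.2 and 33.4 CPM in Bcl3-/- libraries against 1.49, 2.80 and 6.66 CPM in WT libraries (log2 fold change 2.60 ± 0.39, SE, edgeR adjusted p = 0.0016). Ifi44, Xaf1, a protein that antagonises the apoptosis inhibitor XIAP, and Ifi35 differed by log2 fold changes of 2.59, 1.83 and 0.92.

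**Figure D3:**
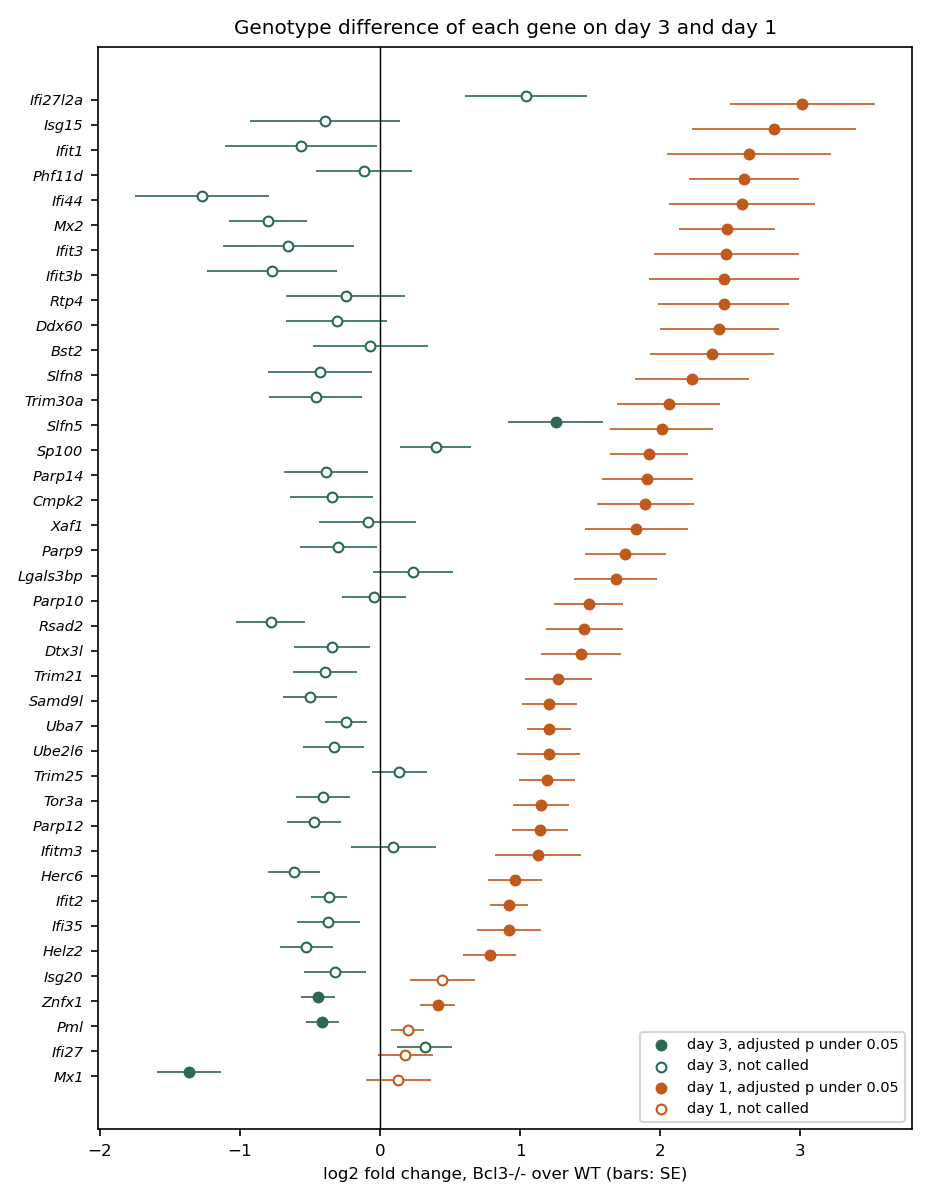
Log2 fold change of Bcl3-/- over WT for each of the 40 genes on day 3 (green) and day 1 (orange), with the SE as bars, ordered by the day 1 value. Filled points passed an adjusted p of 0.05 in edgeR's test. On day 1 all 40 points lie right of 0 and 36 are filled, and on day 3 33 points lie left of 0 and 4 are filled.

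On day 3 few of the 40 genes were called between genotypes, at shares near those of all genes tested. Of the 40 genes, 1 was higher (2.5%) and 3 were lower (7.5%) in the libraries labelled Bcl3-/-, while 4.78% of all genes tested were higher and 5.6% lower, and 36 were not called. The median log2 fold change was -0.37, and 33 of the 40 values were negative. In 20 genes all 3 libraries labelled Bcl3-/- lay below all 3 WT libraries, among them Ifit2, Mx2, Rsad2, Samd9l, Tor3a and Parp9, and in 2 genes, Slfn5 and Sp100, they lay above. Of all genes tested, 15.6% lay below and 13.1% above in this way. These counts rest on small differences. Leaving out 1 library at a time gave 1 to 7 calls: 7 without day 1 WT replicate 3, 6 without day 3 WT replicate 3, 3 without day 1 Bcl3-/- replicate 3 and 1 or 2 without any other library, and the fit without a count filter gave 13 calls, 11 of them lower.

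Mx1 was the 1 gene whose day 3 call held in all 12 of those fits. It had 2.80, 2.33 and 2.58 CPM in Bcl3-/- libraries against 6.26, 7.73 and 5.82 CPM in WT libraries (log2 fold change -1.36 ± 0.23, SE, edgeR adjusted p = 0.0041), so that the libraries labelled Bcl3-/- stayed near the day 1 level and the WT libraries stood above it. Mx2 had 6.37, 4.79 and 5.52 CPM in Bcl3-/- libraries against 10.7, 10.4 and 7.95 CPM in WT libraries, apart but not called (log2 fold change -0.80 ± 0.28, SE, edgeR adjusted p = 0.09). Pml had 52.5, 46.8 and 53.4 CPM in Bcl3-/- libraries against 79.2, 65.2 and 58.4 CPM in WT libraries (log2 fold change -0.41 ± 0.12, SE, edgeR adjusted p = 0.047), and its adjusted p was 0.054 with culture as a random block. Znfx1 had 71.2, 71.4 and 81.0 CPM in Bcl3-/- libraries against 119, 93.0 and 91.5 CPM in WT libraries (log2 fold change -0.44 ± 0.12, SE, edgeR adjusted p = 0.042). The calls of Pml and Znfx1 were lost in 11 and 9 of the 12 fits without 1 library. Slfn5, the 1 gene called higher, had 94.3, 117 and 111 CPM in Bcl3-/- libraries against 42.5, 36.7 and 55.5 CPM in WT libraries (log2 fold change 1.25 ± 0.34, SE, edgeR adjusted p = 0.036). Its exons overlap those of an antisense gene, Slfn5os, by 559 bases, and its call was lost in 7 of the 12 fits without 1 library, with adjusted p values up to 0.13.

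The remaining genes named above were not called on day 3, and their values were as follows. Isg15 had 204, 129.8 and 97.8 CPM in Bcl3-/- libraries against 172, 243 and 152 CPM in WT libraries, Bst2 had 269.8, 191 and 123 CPM in Bcl3-/- libraries against 163, 239 and 211 CPM in WT libraries and Ifitm3 had 849, 724 and 430.1 CPM in Bcl3-/- libraries against 494, 798 and 582 CPM in WT libraries. All 3 genes had overlapping groups, with log2 fold changes of -0.39 ± 0.53, -0.07 ± 0.41 and 0.10 ± 0.30 (SE). Ifit2 had 43.1, 40.5 and 46.9 CPM in Bcl3-/- libraries against 62.9, 54.9 and 50.1 CPM in WT libraries, and Ifit3 had 154, 116 and 82.2 CPM in Bcl3-/- libraries against 182, 236 and 135 CPM in WT libraries. The groups of Ifit2 lay apart and those of Ifit3 overlapped, with log2 fold changes of -0.36 ± 0.13 and -0.65 ± 0.47 (SE). Uba7 had 38.8, 31.5 and 36.9 CPM in Bcl3-/- libraries against 47.7, 38.1 and 41.2 CPM in WT libraries, and Ube2l6 had 94.4, 85.3 and 71.8 CPM in Bcl3-/- libraries against 98.9, 114 and 104 CPM in WT libraries. Of these 2 enzymes, Ube2l6 had its groups apart and Uba7 did not. Rsad2 had 9.92, 6.67 and 8.42 CPM in Bcl3-/- libraries against 16.3, 16.3 and 10.4 CPM in WT libraries, and Samd9l had 171, 173 and 175 CPM in Bcl3-/- libraries against 272, 231 and 231 CPM in WT libraries. Both lay lower in every library labelled Bcl3-/-, with edgeR adjusted p values of 0.065 and 0.12. Tor3a had 103, 88.8 and 100.1 CPM in Bcl3-/- libraries against 147, 136 and 105 CPM in WT libraries, and Lgals3bp had 488, 471 and 499 CPM in Bcl3-/- libraries against 410.4, 351 and 475 CPM in WT libraries. The first had its groups apart, below WT, and the second had overlapping groups. Parp9 had 112, 96.8 and 96.8 CPM in Bcl3-/- libraries against 133, 128 and 115 CPM in WT libraries, and Parp10 had 25.3, 25.6 and 29.8 CPM in Bcl3-/- libraries against 30.0, 26.2 and 27.0 CPM in WT libraries. Parp10 was nearly level between genotypes, with a log2 fold change of -0.04 ± 0.23 (SE). Sp100 had 35.1, 37.9 and 32.6 CPM in Bcl3-/- libraries against 28.3, 21.9 and 29.8 CPM in WT libraries, and Trim25 had 38.2, 37.9 and 50.8 CPM in Bcl3-/- libraries against 42.2, 38.1 and 34.7 CPM in WT libraries. Sp100 was higher in every library labelled Bcl3-/-, at a log2 fold change of 0.40 ± 0.25 (SE). Phf11d had 47.3, 42.3 and 35.0 CPM in Bcl3-/- libraries against 45.6, 49.1 and 40.3 CPM in WT libraries, and Isg20 had 12.8, 10.4 and 7.99 CPM in Bcl3-/- libraries against 12.4, 16.3 and 10.6 CPM in WT libraries. Both had overlapping groups. Ifi27l2a had 150.4, 123 and 65.5 CPM in Bcl3-/- libraries against 29.0, 48.8 and 86.5 CPM in WT libraries, a spread within each group of more than 2-fold (log2 fold change 1.04 ± 0.43, SE, edgeR adjusted p = 0.15). Ifi27 had 98.2, 123 and 88.1 CPM in Bcl3-/- libraries against 72.6, 95.2 and 80.3 CPM in WT libraries, again overlapping (log2 fold change 0.32 ± 0.19, SE, edgeR adjusted p = 0.33).

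**Figure D4:**
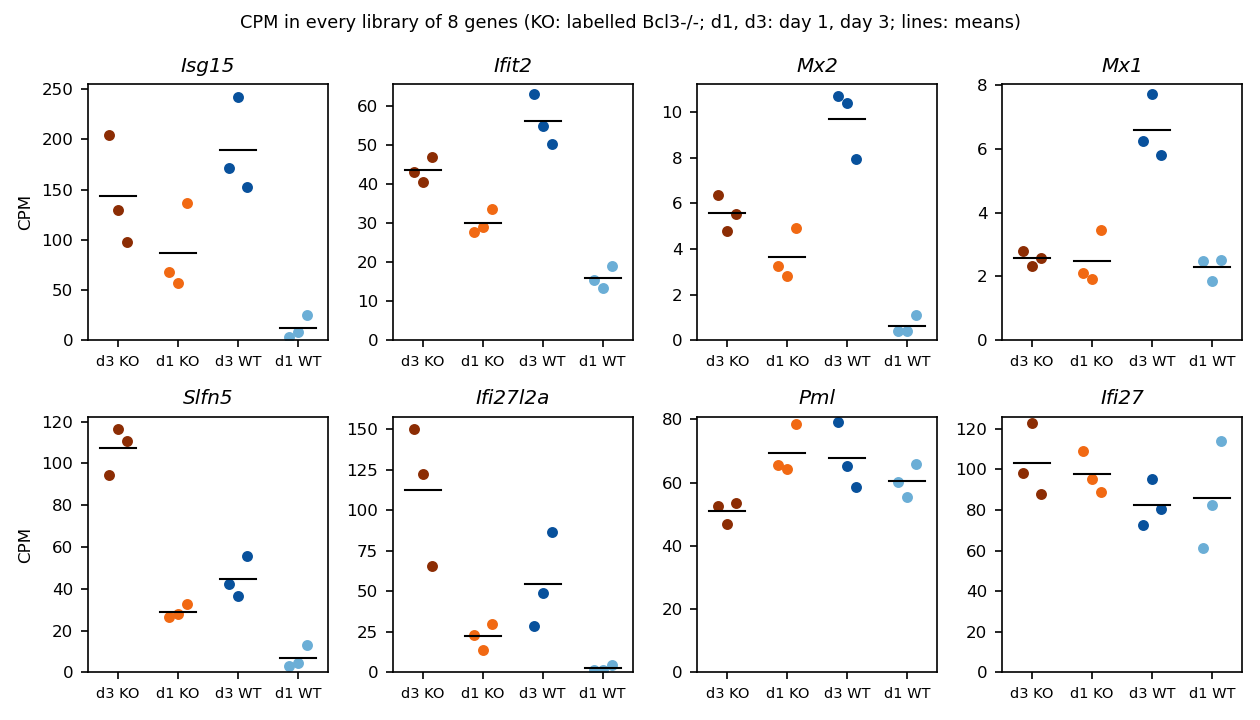
CPM of 8 of the genes in every library by group, with Bcl3-/- (day 3, then day 1) left of WT (day 3, then day 1) and a line at each mean. Isg15, Ifit2 and Mx2 show the main pattern. Mx1 stands above the other groups in day 3 WT alone, Slfn5 is highest in day 3 Bcl3-/-, and Pml and Ifi27 stay within narrow ranges.

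The interaction compares the 2 genotype differences, as the day 3 difference minus the day 1 difference. Over the 40 genes it was negative in 39, with a median of -1.69 on the log2 scale and a range from -3.86 for Ifi44 to 0.14 for Ifi27, and 20 genes (50%) were called lower and none higher. Of all genes tested, 0.95% were called lower and 0.172% higher, and 38 of the 40 genes had an unadjusted p below 0.05, as did 12% of all genes tested. The called genes with the smallest adjusted p were Ifit2 (log2 fold change -1.28 ± 0.19, SE, edgeR adjusted p = 0.021), Mx2 (log2 fold change -3.27 ± 0.44, SE, edgeR adjusted p = 0.021), Uba7 (log2 fold change -1.45 ± 0.22, SE, edgeR adjusted p = 0.021), Samd9l (log2 fold change -1.71 ± 0.28, SE, edgeR adjusted p = 0.026) and Rsad2 (log2 fold change -2.24 ± 0.37, SE, edgeR adjusted p = 0.027). Isg15, at -3.20 ± 0.79 (SE), and the Ifit1, Ifit3 and Ifit3b genes, at -3.19, -3.12 and -3.22, had larger values and larger errors and were not called. Slfn5 and Ifi27l2a, which had positive genotype differences on day 3, had -0.76 ± 0.49 and -1.97 ± 0.67 (SE) and were not called either. The adjusted calls depended on single libraries. In edgeR, 0 genes were called without day 1 Bcl3-/- replicate 2 or 3, day 1 WT replicate 1 or 2, day 3 Bcl3-/- replicate 2 or day 3 WT replicate 2, with 36 to 38 of the 40 genes, and 9.58 to 11.8% of all genes tested, at an unadjusted p below 0.05 in these fits. There were 8 calls without day 1 Bcl3-/- replicate 1, 3 without day 3 Bcl3-/- replicate 3, 2 without day 3 WT replicate 1, 10 without day 3 WT replicate 3, 23 without day 3 Bcl3-/- replicate 1 and 35 without day 1 WT replicate 3. With culture as a random block there were 34 calls, and with DESeq2 there were 33.

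With time, nearly all of the 40 genes rose in WT cultures. From the same fit, 38 of the 40 genes (95%) were higher on day 3 than on day 1 in WT libraries and none was lower, against 20.6% higher and 17.9% lower of all genes tested. The median was a log2 fold change of 2.35, or 5.11-fold, and in each of the 38 genes the 3 day 3 libraries lay above the 3 day 1 libraries, as in 25.1% of all genes tested. Ifit3 had the largest change, with 182, 236 and 135 CPM on day 3 against 2.58, 6.31 and 16.0 CPM on day 1 (log2 fold change 4.44 ± 0.55, SE, edgeR adjusted p = 8.1e-05). Ifi27l2a (log2 fold change 4.31 ± 0.53, SE, edgeR adjusted p = 7.6e-05), Isg15 (log2 fold change 3.93 ± 0.61, SE, edgeR adjusted p = 0.00036) and Mx2 (log2 fold change 3.88 ± 0.34, SE, edgeR adjusted p = 1.1e-05) followed the same course. Mx1, which did not differ between genotypes on day 1, rose 2.90-fold (log2 fold change 1.54 ± 0.23, SE, edgeR adjusted p = 0.00025). Pml and Ifi27 were not called. All 38 calls held in every alternative fit that was run. This comparison shares its day 1 WT libraries with the day 1 genotype comparison, so the 2 sets of values are not independent.

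In the cultures labelled Bcl3-/-, 9 of the 40 genes (22.5%) were higher on day 3 than on day 1 and 1 (2.5%), Pml, was lower, against 16.2% higher and 17.2% lower of all genes tested. The median was a log2 fold change of 0.54, or 1.45-fold. The genes that rose were Slfn5 (log2 fold change 1.89 ± 0.35, SE, edgeR adjusted p = 0.0016), Ifi27l2a (log2 fold change 2.33 ± 0.45, SE, edgeR adjusted p = 0.0022), Ifit2, Sp100, Parp10, Cmpk2, Uba7, Rsad2 and Ddx60, the last 7 by 1.41- to 2.09-fold. Pml changed by log2 fold change -0.45 ± 0.12, SE, edgeR adjusted p = 0.012. This count moved with single libraries: it was 4 without day 1 Bcl3-/- replicate 1, 5 without day 1 Bcl3-/- replicate 2, 6 without day 3 Bcl3-/- replicate 1, 15 without day 1 Bcl3-/- replicate 3 and 25 without day 1 WT replicate 3. It was 20 when only the 6 libraries compared entered the fit and 21 without a count filter.

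With libraries of the same code read as 1 culture, the change can be followed culture by culture. The deviations of such pairs from their group means correlated at -0.16 to -0.017 in Bcl3-/- and 0.24 to 0.33 in WT libraries. In Bcl3-/- libraries the pairing thus rests on the code alone. The median log2 change of the 40 genes was 0.86, 0.69 and 0.079 in the 3 cultures labelled Bcl3-/- and 2.92, 2.73 and 1.68 in the 3 WT cultures. In replicate 3 of the cultures labelled Bcl3-/-, 23 genes were higher and 17 lower on day 3. In WT cultures 1 and 2 all 40 genes were higher. In 37 of the 40 genes each of the 3 cultures labelled Bcl3-/- changed by less than each of the 3 WT cultures, the exceptions being Isg20, Ifitm3 and Ifi27. The same held for 12.5% of all genes tested.

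**Figure D5:**
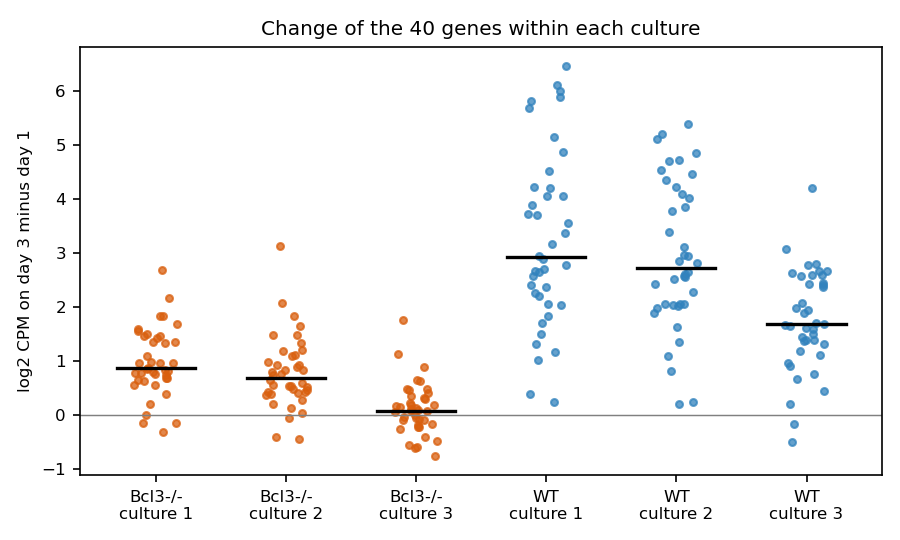
Change of each of the 40 genes within a culture, as log2 CPM on day 3 minus day 1, for the 3 cultures labelled Bcl3-/- and the 3 WT cultures. Libraries were paired by culture code. Points are genes, spread sideways at random, and black lines are medians, at 0.86, 0.69 and 0.079 in Bcl3-/- and 2.92, 2.73 and 1.68 in WT cultures.

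The day 1 libraries labelled Bcl3-/- did not reach the day 3 WT level. Of the 40 genes, 17 (42.5%) were lower in day 1 Bcl3-/- than in day 3 WT libraries and none was higher, against 7.32% lower and 7.35% higher of all genes tested, with a median log2 fold change of -0.91. All 3 day 1 Bcl3-/- libraries lay below all 3 day 3 WT libraries in 32 genes, and in 18.1% of all genes tested. Ifit2, with 27.7, 28.9 and 33.5 CPM against 62.9, 54.9 and 50.1 CPM, had the smallest adjusted p (log2 fold change -0.90 ± 0.13, SE, edgeR adjusted p = 0.0011). Mx1 (log2 fold change -1.40 ± 0.22, SE, edgeR adjusted p = 0.0018) and Rsad2 (log2 fold change -1.51 ± 0.25, SE, edgeR adjusted p = 0.0023) followed. Trim25 and Ifitm3 were among those not called, at log2 fold changes of -0.03 ± 0.19 and -0.18 ± 0.30 (SE). The count was 27 with culture as a random block, 7 without day 1 Bcl3-/- replicate 2, 8 without day 1 Bcl3-/- replicate 1, 10 without day 3 WT replicate 2 and 29 without day 1 WT replicate 3.

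Within the day 1 groups the 40 genes moved together from library to library. Replicate 3 had the highest CPM of its group for 39 of 40 genes in day 1 Bcl3-/- libraries, all but Ifi27, and for 39 of 40 in day 1 WT libraries, all but Isg20. Replicate 1 of day 1 WT was the lowest for 28 genes. The median SD of log2 CPM within a group was 0.17 in day 3 Bcl3-/- libraries, 0.35 in day 1 Bcl3-/- libraries, 0.22 in day 3 WT libraries and 0.67 in day 1 WT libraries over the 40 genes, against 0.18, 0.12, 0.17 and 0.15 over all genes tested. The median ratio between the highest and the lowest library of a group was 1.26, 1.59, 1.34 and 2.37 for the 40 genes. The 40 genes thus spread more than other genes on day 1 and about as much as other genes on day 3, and their number 3 cultures are not the same culture, 1 being labelled Bcl3-/- and the other WT.

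The genes that act before and beside these effectors were read in the same fit. Of 15 interferon genes none passed the count filter. Ifnb1 had 16 counts in 8 libraries, Ifng 13 counts in 6 and Ifnz 41 counts in 12, Ifna1 and Ifna2 had 1 count each, and the other 10 had none. Summed over the 15, the level was 0.130 to 0.158 CPM in day 3 Bcl3-/-, 0.198 to 0.341 CPM in day 1 Bcl3-/-, 0.125 to 0.215 CPM in day 3 WT and 0.0911 to 0.317 CPM in day 1 WT libraries, and no interferon gene was tested between groups. Ifnb1, which encodes interferon-β, had 0, 0 and 0.0526 CPM in day 3 Bcl3-/- libraries, 0.0506, 0.170 and 0.0659 CPM in day 1 Bcl3-/- libraries, 0.0352, 0.0921 and 0.0251 CPM in day 3 WT libraries and 0, 0 and 0.0266 CPM in day 1 WT libraries. On day 1 its Bcl3-/- libraries thus lay above its WT libraries, at no more than 5 counts in any library, while on day 3 the groups overlapped. The receptor and kinase genes Ifnar1, Ifnar2, Ifngr1, Ifngr2, Jak1 and Tyk2 were not called between genotypes on either day. Of all genes tested, 9.03% were called higher on day 1 and 4.78% on day 3. Of the 18 receptor, kinase, STAT and IRF genes, 4 rose on day 1 and none on day 3.

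The following 3 of them are known to be induced by interferon themselves. On day 1, Stat2 averaged 108 ± 21.5 CPM in Bcl3-/- libraries and 41.7 ± 16.98 CPM in WT libraries (SD, n = 3 each) (log2 fold change 1.37 ± 0.23, SE, edgeR adjusted p = 0.0025). Irf9, its DNA-binding partner, averaged 73.4 ± 10.7 CPM in Bcl3-/- libraries and 27.1 ± 14.3 CPM in WT libraries (SD, n = 3 each) (log2 fold change 1.43 ± 0.26, SE, edgeR adjusted p = 0.0045). Irf7, which drives interferon genes, averaged 41.3 ± 16.3 CPM in Bcl3-/- libraries and 7.25 ± 6.28 CPM in WT libraries (SD, n = 3 each) (log2 fold change 2.47 ± 0.46, SE, edgeR adjusted p = 0.0043). Among the nucleic acid sensors, 8 of 12 tested rose on day 1, led by Dhx58 (log2 fold change 2.43 ± 0.37, SE, edgeR adjusted p = 0.0016), Zbp1 (log2 fold change 2.82 ± 0.44, SE, edgeR adjusted p = 0.0019), Eif2ak2 (log2 fold change 0.89 ± 0.15, SE, edgeR adjusted p = 0.0025) and Tlr3 (log2 fold change 1.01 ± 0.19, SE, edgeR adjusted p = 0.0044). Of the 6 feedback inhibitors, Usp18, which removes ISG15 and blocks the receptor, rose (log2 fold change 2.46 ± 0.44, SE, edgeR adjusted p = 0.0037), as did Socs3 (log2 fold change 0.75 ± 0.16, SE, edgeR adjusted p = 0.0082) and Nlrc5 (log2 fold change 0.84 ± 0.18, SE, edgeR adjusted p = 0.01). Of the 18 OAS, GBP and IRG genes, 15 rose on day 1, led by Oas1a (log2 fold change 2.58 ± 0.34, SE, edgeR adjusted p = 0.0011), Oas1b (log2 fold change 2.53 ± 0.37, SE, edgeR adjusted p = 0.0015), Gbp7 (log2 fold change 1.91 ± 0.28, SE, edgeR adjusted p = 0.0015) and Gbp3 (log2 fold change 2.64 ± 0.41, SE, edgeR adjusted p = 0.0018). These counts stand against 9.03% of all genes tested called higher on day 1. On day 3, 4.78% of all genes tested were higher and 5.6% lower. None of the sensors or feedback genes was called on day 3. Of the 18 OAS, GBP and IRG genes, 1 was higher and Oas3 was lower (log2 fold change -0.94 ± 0.28, SE, edgeR adjusted p = 0.049). In the interaction, 10 of these 18 genes were called lower, against 20 of the 40 effectors and 0.95% of all genes tested. None of the 20 effector calls held in all 12 fits without 1 library. For the 18 genes such fits are not reported here.

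Markers of other cells were compared because immune cells respond strongly to interferon. Between genotypes, 9.03% of all genes tested were called higher and 6.26% lower on day 1, and 4.78% and 5.6% on day 3. None of 16 macrophage markers was called between genotypes on day 1, with summed levels of 451 to 506 CPM in day 1 Bcl3-/- and 387 to 610 CPM in day 1 WT libraries. On day 3 their sums were 535 to 1072 CPM in Bcl3-/- and 890 to 1312 CPM in WT libraries, and 2 of the 16, Csf1r (log2 fold change -0.90 ± 0.17, SE, edgeR adjusted p = 0.0082) and Cx3cr1 (log2 fold change -3.29 ± 0.42, SE, edgeR adjusted p = 0.0015), were lower. From day 1 to day 3, 20.6% of all genes tested rose and 17.9% fell in WT libraries, and 16.2% and 17.2% in Bcl3-/- libraries. Of the 16 macrophage markers, 11 were higher on day 3 in WT libraries, and in Bcl3-/- libraries 8 of the 16 were higher and 1 lower. The part of these cells in the changes of the 40 genes with time and on day 3 was not tested. Of 13 lymphocyte and dendritic cell markers, 8 passed the filter and none was called between genotypes on either day. Their sums were 1.26 to 67.7 CPM in day 3 Bcl3-/- and 54.2 to 88.6 CPM in day 1 Bcl3-/- libraries. In WT libraries they were 53.3 to 90.0 CPM on day 3 and 82.4 to 154 CPM on day 1. The day 3 Bcl3-/- libraries differed among themselves. Ccr7 had 58.2, 0.583 and 0.473 CPM in them against 74.8, 42.8 and 65.0 CPM in day 3 WT libraries. The median log2 fold change of the 8 markers on day 3 was -1.50, so the lack of calls does not show equal levels. The endothelial markers summed to 8.27 to 11.5 CPM in day 1 Bcl3-/- and 5.62 to 6.06 CPM in day 1 WT libraries, with 1 of 5 tested called higher, Tek, and the adipocyte markers to 92.9 to 112 CPM and 32.4 to 45.1 CPM in the same groups, with 2 of 4 tested called higher. Of 8 smooth muscle and pericyte markers, 3 were lower and 1 was higher on day 1, and of the 4 skeletal muscle markers tested 1 was higher. Of the 12 osteoblast markers, 5 were higher and 1 lower. On day 3 the endothelial markers summed to 18.3 to 21.7 CPM in Bcl3-/- and 7.24 to 10.1 CPM in WT libraries, with 1 of 5 tested called higher, and the adipocyte markers to 224 to 292 CPM in Bcl3-/- and 57.1 to 103 CPM in WT libraries, with 3 of 4 tested called higher. The smooth muscle and pericyte markers summed on day 3 to 2302 to 2535 CPM in Bcl3-/- and 3060 to 3342 CPM in WT libraries, with 4 of 8 lower and 1 higher. None of the skeletal muscle markers was called on day 3, and of the osteoblast markers 3 were higher and 1 lower. The part of these cells in the differences of the 40 genes was not tested.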

How the data were processed

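The authors made libraries with SMART-seq v4 chemistry and sequenced both fragment ends. They trimmed reads with Trim Galore, aligned them with TopHat2 to GRCm38 (mm10) and counted them with HTSeq, and the deposited counts were used here without scaling by the authors. The 5 entries of the count table that are not genes, 12.3 to 14.7% of its counts per library, were left out. The deposited FPKM values were made by the authors with Cufflinks, and 49 entries with several values and 1 stray header were dropped. Tool versions, strand setting and annotation release were not given in the sources used here. Gene positions came from GENCODE M21 and promoters from RefSeq.

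Genes were kept by filterByExpr and fitted with edgeR 4.0.16 (TMM factors 0.951 to 1.05, quasi-likelihood test, 4 groups in 1 fit, R 4.3.3), with Benjamini-Hochberg adjustment over 16318 genes and a threshold of 0.05. The biological coefficient of variation was 13.5%. The log2 means over the genes used a prior count of 2. Alternatives used DESeq2 1.42.0 and limma 3.58.1 on log2(FPKM + 1) and log2(FPKM + 0.1). The edgeR test was tried on simulated data for every comparison except the interaction, and limma and DESeq2 for genotype on day 1 only. The fits with a block were not tried on simulated data. The comparisons share libraries. Each edgeR p-value uses a spread estimated over all 12 libraries, so the spread of groups outside a comparison also enters it. The libraries were taken as independent, although each culture code occurs on both days, except in the fits with a culture block. Each group had 3 cultures.

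The genes, lists and tests were chosen with earlier results of these data known. Values in every library are given for the 2 genes of each role with the smallest adjusted p for genotype on day 1, the 6 with the smallest adjusted p among those called in the interaction or lower in a genotype comparison, the 3 with the highest mean FPKM and those not called on day 1. Slfn5, Znfx1, Ifi44 and other genes outside this rule were named after their values were seen. Context genes are the up to 4 of a list with the smallest adjusted p on day 1 and any interferon gene with counts, and those called on day 3 were added after their values were seen. The days were paired by culture code only in the changes by culture and in the culture block. For libraries of 1 culture, the correlation of their deviations from the group mean was -0.16 to -0.017 in Bcl3-/- and 0.24 to 0.33 in WT libraries. Genotypes were not paired. Results for some context genes are not reported here.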

Additional observations from a re-analysis of the deposited data

Results flagged for a closer look

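The genotype difference of 20 of the 40 genes differed between the days by the interaction term of the edgeR fit (adjusted p below 0.05), in each case as a day 3 difference that was lower than the day 1 difference. On the log2 scale the interaction was Ifi44 -3.86, Mx2 -3.27, Ddx60 -2.73, Phf11d -2.71, Slfn8 -2.65, Trim30a -2.52, Parp14 -2.29, Cmpk2 -2.24, Rsad2 -2.24, Parp9 -2.05, Samd9l -1.71, Trim21 -1.66, Parp12 -1.61, Herc6 -1.58, Tor3a -1.55, Ube2l6 -1.53, Uba7 -1.45, Helz2 -1.31, Ifit2 -1.28 and Znfx1 -0.85. In edgeR, the fits without day 1 Bcl3-/- replicate 2 or 3, day 3 Bcl3-/- replicate 2, day 1 WT replicate 1 or 2 or day 3 WT replicate 2 called 0 of the 40 genes, with 36 to 38 of them, and 9.58 to 11.8% of all genes tested, at an unadjusted p below 0.05, and DESeq2 called 33. With 3 libraries a group, single libraries were not tested for lying apart.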

How the results depend on the processing

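In WT cultures, the 38 genes higher on day 3 held in every fit, and on day 1 the count of genes called between genotypes was 30 to 36 without 1 library and 31 to 36 in all other fits, with none lower. The other counts were less stable, and the cause was not tested. Without 1 library they ranged from 1 to 7 for genotype on day 3, 4 to 25 for time in Bcl3-/-, 0 to 35 for the interaction and 7 to 29 for day 1 Bcl3-/- against day 3 WT. DESeq2 gave 7 calls for genotype on day 3 and 33 in the interaction. Without a count filter there were 13 for genotype on day 3, 21 for time in Bcl3-/-, 36 in the interaction and 31 for day 1 Bcl3-/- against day 3 WT. With limma on log2(FPKM + 1) the counts were 1, 6, 0 and 11 in the same order, and on log2(FPKM + 0.1) they were 1, 4, 0 and 7, with 38 of the 40 genes at an unadjusted p below 0.05 in the interaction under both, against 8.12% and 8.16% of all genes tested. With only the libraries compared, there were 20 calls for time in Bcl3-/- and 30 for day 1 Bcl3-/- against day 3 WT.

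The replicate block by culture gave 34 calls in the interaction and 27 for day 1 Bcl3-/- against day 3 WT, with a correlation of 0.197 within cultures. With the title number as the block, the counts were 36 for genotype on day 1, 4 for genotype on day 3, 22 in the interaction and 18 for day 1 Bcl3-/- against day 3 WT. Numbers shared between genotypes mark no common culture. Neither block moved another count by over 1.5 times.

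Bcl3 on day 3 had a log2 fold change of -0.58 (adjusted p = 0.060, limma) on log2(FPKM + 1) and -0.65 (adjusted p = 0.057, limma) on log2(FPKM + 0.1). It ranged from -0.70 to -0.54 without 1 library, and on day 1 from -0.0898 to 0.0677. Uncalled values that changed sign without 1 library ranged from -0.18 to 0.29 for Mx1 and from -0.019 to 0.44 for Ifi27 on day 1. On day 3 they ranged from -0.38 to 0.17 for Bst2, -0.11 to 0.33 for Ifitm3, -0.12 to 0.017 for Parp10 and -0.0093 to 0.21 for Trim25, and in the interaction from -0.099 to 0.36 for Ifi27. The mean over the 40 genes kept its direction in each comparison with a prior count of 0.5 or log2(FPKM + 1). Mx2, Ddx60 and Cmpk2, with as few as 9, 12 and 17 counts in a library, are the genes for which depth limits the values most.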
